A study of Neurospora crassa with 22 samples.

Results

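The cellulose utilization genes examined here are 10 of the 9730 genes in an RNA-seq table of *Neurospora crassa*. They were chosen by name for their known roles, as 4 enzymes, 2 transporters and 4 regulators, with earlier results of these data known. All 10 were found in the table. Gene identifiers and symbols, and positions on the linkage groups of the NC12 assembly, are given with each gene.

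*N. crassa* degrades plant cell walls as a saprotroph. Cellobiohydrolases and endoglucanases are secreted onto cellulose and release short glucose chains, the cellodextrins, which transporters carry into the cell, where beta-glucosidase splits them to glucose. The genes are switched on by zinc cluster transcription factors when cellodextrins are sensed, and they are held down by carbon catabolite repression when glucose or another preferred sugar is present.

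The study asked what the linker histone H1 does in this fungus. RNA was taken from a wild-type strain and from an *hH1* mutant strain, with 3 libraries for each. Conidia had been grown for 5 hr in Vogel's minimal medium with glucose as the sugar. The libraries were thus made in a sugar that represses the pathway, and no culture on cellulose is analysed here. The study's strain list holds a deletion mutant and a mutant named for repeat-induced point mutation, and wild types of both mating types, and its methods do not name which were used for RNA. The target gene *hH1* (NCU06863) measured 266, 327 and 293 FPKM in the wild-type libraries, against 9.35, 2.06 and 3.22 FPKM in those of the mutant, so each mutant library lay below each wild-type library (exact permutation test, two-sided, p = 0.1, below which no comparison of 3 with 3 can go). The mating type gene *matA-1* (NCU01958) had a listed value of 0 throughout the wild type but 2.6, 1.75 and 3.83 FPKM in the mutant libraries. Whether the 2 strains differ elsewhere in background was not tested, and H1 loss and such background cannot be told apart here.

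FPKM is the number of fragments per kilobase of transcript and per 1000000 mapped fragments. The columns of the table name the strain and carry numbers that are not the replicate numbers of the sample labels, so libraries are called WT_0, WT_1, WT_2, hH1_0, hH1_1 and hH1_2 as in the table. The series' design text states that replicates were biological. From the steps between low values, the depth was estimated as 6440000, 8990000 and 11100000 fragments for the wild type and as 9120000, 7380000 and 5700000 for the mutant, on the assumption that each total was used for its own library alone. A check of these depths on transcripts of known exon length rested on 2 low values in hH1_0, and on 7 to 11 in the other libraries. The labels call the material mycelium. Markers of growing hyphae (*act*, *tba-1*, *tba-2*, *hex-1*, *chs-1*) summed to between 4755 and 6715 FPKM in the wild type, and to between 7428 and 7889 FPKM in the mutant. Of the conidiation genes *con-6*, *con-8*, *con-10*, *con-13* and *eas*, *con-13* was listed at 0 throughout, and the 5 summed to between 11.3 and 16.7 FPKM in the wild type, and to between 14.8 and 18.7 FPKM in the mutant. The summed hyphal markers were higher in each mutant library than in each wild-type library. The sum was mostly *hex-1* (means of 3847 and 5801 FPKM). *act* was also higher in each mutant library (887 and 1086 FPKM), whereas *chs-1* was lower in each (39.5 and 32.7 FPKM). *tba-1* (227 and 290 FPKM) and *tba-2* (416 and 409 FPKM) overlapped. In limma, 0 of the 5 passed the test and 3 had an unadjusted p under 0.05, against 25.9% of all tested genes. For *hex-1* the adjusted p from limma was 0.0586. It was 0.0439 with library medians set equal and 0.107 with each library's trend with gene length removed. Leaving out 1 library gave *hex-1* an adjusted p between 0.0207 and 0.234. The part of these markers in the results below was not tested. In such bulk RNA, fewer cells of a kind and less RNA per cell cannot be told apart.

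The library hH1_0 stood apart among the low values. It listed 2185 genes at 0, where the other 5 libraries listed between 1577 and 1712. It had 151 single-transcript genes at an estimated 1 to 5 fragments, where the others had between 372 and 612. In hH1_0, 30 genes were listed at 0 although each of the other 5 libraries had at least 1 FPKM, and the other libraries had between 0 and 3 such genes. Of the 10 cellulose utilization genes, 5 were listed at 0 in hH1_0, 1 in WT_0 and 0 in each of the other libraries. A value of 0 in such a table can be a missing estimate. The glycolytic gene *gpd-1*, which growing cells use, had a listed 0 in all 3 libraries of the wild type but 29444 FPKM or more in each of the mutant. A 0 is therefore given below as listed, no mean ± SD is given for a group that holds one, and log2 differences are also given without hH1_0.

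**Figure D1:**
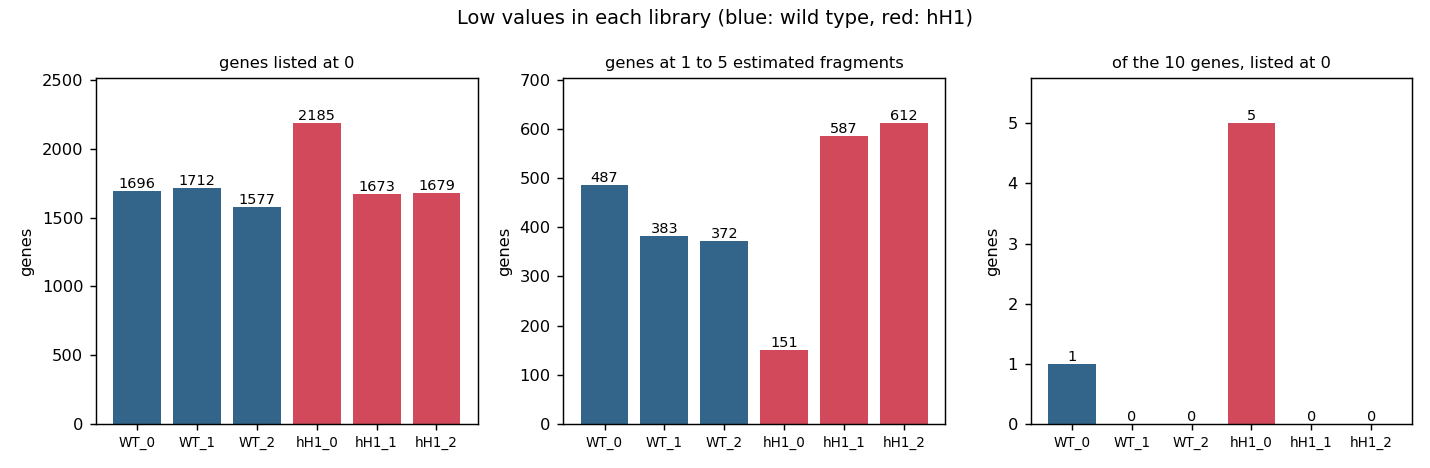
Number of genes (vertical axes) listed at 0 (left), at 1 to 5 estimated fragments (middle) and listed at 0 among the 10 cellulose utilization genes (right) in each of the 6 libraries, with wild type in blue and *hH1* in red. The library hH1_0 has the most genes at 0 (2185), the fewest at 1 to 5 fragments (151) and 5 of the 10 genes at 0.

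The secreted enzymes were expressed at low levels in glucose. *cbh-1* (NCU07340, LG IV 4311049 to 4314145) encodes a cellobiohydrolase, the kind of enzyme that dominates the secretome of cellulose-grown cultures. It measured 0.965, 0.567 and 0.851 FPKM in the wild-type libraries, against 0.884, 0.247 and 0.384 FPKM in those of the mutant. The highest mutant value was hH1_0, and it lay within the wild-type range. Counting the whole length of the gene, introns included, these levels stood for at most 5.29 to 27.4 fragments per library. The mean level was 0.794 ± 0.205 FPKM in the wild type, against 0.505 ± 0.335 FPKM in the mutant (SD, n = 3), and 24.0% of all genes had a lower wild-type mean. The groups overlapped, and the difference was within their spread (exact permutation test, p = 0.3). Without a filter on low values, its difference on the scale of log2(FPKM + 1) was -0.27 (95% interval -0.74 to 0.2, adjusted p = 0.454 from limma). It was -0.44 without hH1_0, -0.15 without hH1_1 and -0.12 with each library's trend with gene length removed.

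*gh6-2* (NCU09680, LG V 858215 to 859731), the second cellobiohydrolase of the list, was the highest of the 4 enzymes by wild-type mean. Its level was 3.58, 5.55 and 4.63 FPKM in the wild type, against 3.23, 3.77 and 4.46 FPKM in the mutant. The means were 4.59 ± 0.987 and 3.82 ± 0.614 FPKM (SD, n = 3), and the groups overlapped. On the same scale, on which all log2 differences are given and which understates the change of low genes, the mutant differed by -0.21 (standard error 0.22, 95% interval -0.7 to 0.29, adjusted p = 0.578 from limma with Benjamini-Hochberg adjustment over 7208 genes). It was -0.12 without hH1_0, -0.083 without WT_1, -0.34 without WT_0, -0.046 after quantile normalization and -0.3 with the length trend removed.

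*gh5-1* (NCU00762, LG I 7271711 to 7273785) encodes an endoglucanase, which cuts inside cellulose chains. The wild-type libraries measured 1.28, 0.183 and 1.53 FPKM. In the mutant it was listed at 0 in hH1_0 and was at 0.448 and 0.386 FPKM in the other libraries. WT_1, with at most 3.09 fragments, lay below 2 of the mutant libraries, so the groups overlapped (exact permutation test, p = 0.3). The log2 difference without a filter was -0.59 (95% interval -1.29 to 0.11, adjusted p = 0.288 from limma), and -0.42 without hH1_0. This gene varied by 71.8% of its mean among the wild-type libraries, more than any other enzyme of the list.

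*gh1-1* (NCU00130, LG III 2730966 to 2733380) encodes the intracellular beta-glucosidase that completes the pathway. In the wild type it measured 3.58, 5.29 and 4.03 FPKM, with a mean of 4.3 ± 0.889 (SD, n = 3). In the mutant it was listed at 0 in hH1_0 and was at 2.82 and 2.5 FPKM in hH1_1 and hH1_2. Each mutant library was lower than each wild-type library (exact permutation test, p = 0.1). At the levels of hH1_1 and hH1_2, hH1_0 would hold an estimated 41.4 to 46.7 fragments of the main transcript. The log2 difference was -1.15 (standard error 0.46, 95% interval -2.16 to -0.13), the largest among the 10 genes on this scale, with an unadjusted p of 0.0303 and an adjusted p of 0.15 in limma. It was -0.52 without hH1_0 (adjusted p = 0.212 from limma) and -1.09 with the length trend removed. The mean of hH1_1 and hH1_2 was 38.1% below that of the wild type. By this measure *clr-2* (71.5%), *cbh-1* (60.2%) and *gh5-1* (58.3%), all averaging under 1 FPKM, were lower by more. Of the other members, *cdt-2* was higher in the mutant and the rest were lower by less.

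The transporters were low as well. *cdt-1* (NCU00801, LG I 7121829 to 7125021) encodes a cellodextrin transporter. Wild-type levels were 2.06, 1.62 and 1.5 FPKM, against 0.537, 0.944 and 1.47 FPKM in the mutant, with hH1_0 the lowest. The means were 1.73 ± 0.293 and 0.982 ± 0.466 FPKM (SD, n = 3), and the groups did not overlap, by the narrow margin between 1.5 in WT_2 and 1.47 in hH1_2 (exact permutation test, p = 0.1). The log2 difference was -0.48 (standard error 0.31, 95% interval -1.16 to 0.2, adjusted p = 0.338 from limma), -0.31 without hH1_0 and -0.32 with the length trend removed. The annotated gene NCU10770 lies inside *cdt-1* and shares all of its 340 bases with it. Its listed value was 0 except in hH1_0 (1.28 FPKM). How the reads of these bases were divided is not given in the sources used here, so the *cdt-1* value of hH1_0 is uncertain to that extent.

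*cdt-2* (NCU08114, LG I 318873 to 321079), the other cellodextrin transporter, was the lowest of the 10 genes in the wild type. It was listed at 0 in WT_0 and was at 0.0608 and 0.344 FPKM in WT_1 and WT_2. In the mutant it was listed at 0 in hH1_0 and was at 0.148 and 0.384 FPKM in the others. No library held more than an estimated 7.66 fragments of it. Counted over the whole length of the gene, introns included, a single fragment was worth at least 0.0449 to 0.0874 FPKM, depending on the library. The groups overlapped (exact permutation test, p = 0.8), with a log2 difference of 0.052 without a filter (95% interval -0.38 to 0.48) and of 0.16 without hH1_0, and a difference between strains was not detectable at this depth.

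Among the regulators, *clr-2* and *xlr-1* were low, *clr-1* was intermediate and the repressor was high. *clr-1* (NCU07705, LG IV 2149157 to 2154036) encodes a zinc cluster activator that is needed for growth on cellulose and that acts before *clr-2*. In the wild type it measured 5.22, 5.87 and 7.31 FPKM, against 4.62, 4.27 and 4.9 FPKM in the mutant. The groups did not overlap (exact permutation test, p = 0.1), with means of 6.13 ± 1.07 and 4.6 ± 0.312 FPKM (SD, n = 3), a mean 25% lower in the mutant, and 42.6% of all genes had a lower wild-type mean. The log2 difference was -0.34 (standard error 0.19, 95% interval -0.77 to 0.09, adjusted p = 0.289 from limma), and it was also -0.34 without hH1_0. With a length of 4880 bases, *clr-1* is the longest gene of the list, and longer genes tended to lower values in the mutant libraries. The median log2 difference of the 500 tested genes nearest to it in length was -0.29, and with each library's trend with gene length removed the difference of *clr-1* was -0.053.

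*clr-2* (NCU08042, LG IV 4001190 to 4004643) encodes the second activator, whose transcript rises when cellulose is sensed and which drives the cellulase genes. Its wild-type levels were 0.491, 0.666 and 0.17 FPKM. In the mutant it was listed at 0 in hH1_0 and was at 0.0855 and 0.166 FPKM in the others. Each mutant library was lower than each wild-type library (exact permutation test, p = 0.1), although WT_2 at 0.17 and hH1_2 at 0.166 FPKM were nearly equal. The values stood for at most 6.13 to 19.5 fragments per wild-type library, and for at most 3.08 per mutant library. Tested without a filter on low values, the log2 difference was -0.4 (95% interval -0.81 to 0.0082, adjusted p = 0.226 from limma), and it was -0.34 without hH1_0.

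*xlr-1* (NCU06971, LG IV 4706112 to 4709560) encodes the activator of xylanase and other hemicellulose genes. The wild type measured 0.593, 0.247 and 0.228 FPKM. In the mutant it was listed at 0 in hH1_0 and was at 0.301 and 0.279 FPKM in the others, which lay between the wild-type values (exact permutation test, p = 0.6). Without hH1_0 and without a filter, its log2 difference went from -0.18 (95% interval -0.6 to 0.23) to -0.061.

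*cre-1* (NCU08807, LG IV 5176440 to 5178927) encodes the zinc finger repressor of carbon catabolite repression. Its wild-type levels of 105, 98.3 and 111 FPKM stood against 86.7, 85.6 and 93.2 FPKM in the mutant. It alone of the list was highly expressed, and 91.9% of genes had a lower wild-type mean. Counted over the whole length of the gene, its levels stood for at most 1215 to 2820 fragments per library, the most of the 10 genes, and its wild-type values varied by 6.06% of their mean. The means were 105 ± 6.35 and 88.5 ± 4.09 FPKM (SD, n = 3), 15.5% lower in the mutant, and the groups did not overlap (exact permutation test, p = 0.1). The log2 difference was -0.24 (standard error 0.11, 95% interval -0.49 to 0.01, adjusted p = 0.208 from limma). It was -0.23 without hH1_0, -0.14 after centring of the libraries on their medians and -0.17 with the length trend removed.

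**Figure D2:**
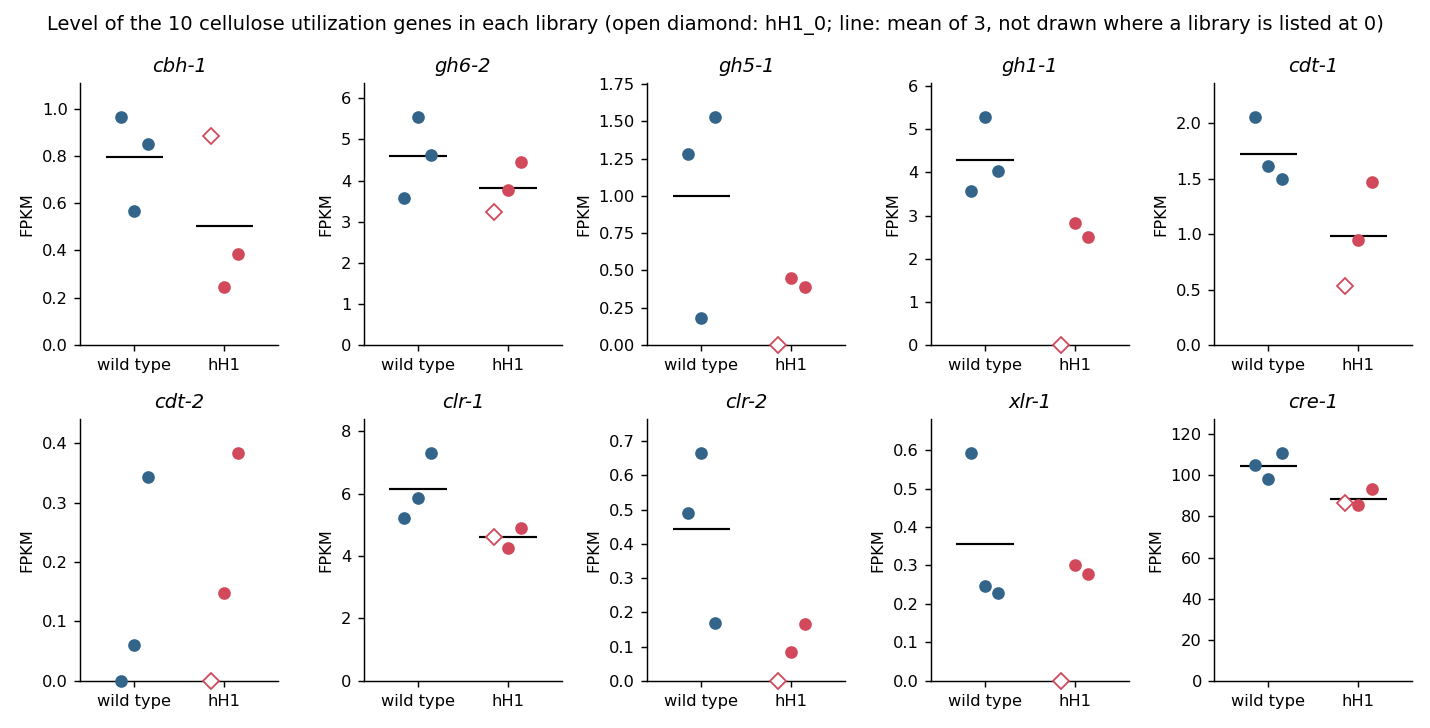
Level in FPKM (vertical axes, each from 0) of the 10 genes in the 3 wild-type (blue) and 3 *hH1* (red) libraries, with hH1_0 as an open diamond and a line at the mean of 3 libraries, left out where a library is listed at 0. The groups do not overlap for *gh1-1*, *cdt-1*, *clr-1*, *clr-2* and *cre-1*, and hH1_0 alone is the lowest library for 6 of the 10 genes.

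FPKM are scaled by length, so levels of different genes can be set side by side. In the wild type, *cre-1* (105 FPKM) was followed by *clr-1* (6.13), *gh6-2* (4.59), *gh1-1* (4.3) and *cdt-1* (1.73). Below these, *gh5-1*, *cbh-1*, *clr-2*, *xlr-1* and *cdt-2* averaged under 1 FPKM in the wild type, with the listed 0 of *cdt-2* in WT_0 counted. Between neighbours in this order, library ranges did not overlap for *cre-1* over *clr-1* and for *gh1-1* over *cdt-1*, and they overlapped for each other pair of neighbours. Within a library, *cre-1* was between 15.2 and 20.1 times the level of *clr-1*. This ratio does not depend on a common scale factor of the library, but a trend with gene length can move it. It was 17.3 ± 2.51 in the wild type and 19.3 ± 0.643 in the mutant (SD, n = 3, exact permutation test, p = 0.4). Of the summed FPKM of the 10 genes, *cre-1* made up 83.1% to 85.5% in the wild-type libraries and 86.2% to 90.3% in the mutant libraries, without overlap (exact permutation test, p = 0.1). The 90.3% was in hH1_0, where 5 of the 10 are listed at 0. With 86.8% in hH1_1 and 86.2% in hH1_2, the margin to the wild type was narrow. The ratio of *cre-1* to the summed 3 activators was 16.7, 14.5 and 14.4 in the wild type and 18.8, 18.4 and 17.4 in the mutant, also without overlap (exact permutation test, p = 0.1). The highest was hH1_0, where *clr-2* and *xlr-1* are listed at 0. How often ratios of other genes separate in this way was not tested. *cre-1* has 2488 bases and *clr-1*, which made up most of the activator sum, has 4880. Their log2 differences were -0.24 and -0.34 as deposited, but -0.17 and -0.053 with the length trend removed, so that *cre-1* was then lower by more. Whether the ratios still separate with this trend removed was not tested. The 4 enzymes summed to 9.41, 11.6 and 11 FPKM in the wild-type libraries and to 4.12, 7.28 and 7.73 FPKM in the mutant libraries (exact permutation test, p = 0.1). The share of *gh6-2* in this sum ranged from 38.0% to 47.9% in the wild type and from 51.7% to 78.5% in the mutant (exact permutation test, p = 0.1). The mutant library hH1_0, with *gh5-1* and *gh1-1* listed at 0, had the highest share. Of the summed level of *clr-1*, *clr-2* and *xlr-1*, *clr-1* made up at least 82.8% in each library.

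Whether the loss of H1 went with other levels of these genes was examined in the fit across all genes. A gene was tested if its 6 libraries averaged 1 FPKM or more, which held for *gh6-2*, *gh1-1*, *cdt-1*, *clr-1* and *cre-1* and not for the other 5. Of all 7208 tested genes, 4.99% had an adjusted p below 0.05 between the strains by limma with Benjamini-Hochberg adjustment. Of the 5 tested members 0 did, with 1 (*gh1-1*) at an unadjusted p under 0.05, against 25.9% of all tested genes. Without the filter, 2.18% of 8636 genes and 0 of the 10 members were called, with *gh1-1* and *cre-1* at an unadjusted p under 0.05, against 22.8% of these genes. No other tool was run. Of the 10 genes, 9 had a negative log2 difference, *cdt-2* being the exception, and the same was so for 60.9% of all genes in this fit. The median over the 10 genes was -0.31, and over all genes it was -0.092. After each library was centred, these medians were -0.19 and 0.024. The mutant libraries lay below the wild-type libraries without overlap for 5 of the 10 genes, as they did for 19.7% of all genes without a filter. Without hH1_0 this was so for 6 of the 10 genes, *cbh-1* having joined, and for 24.4% of all genes. Several of these margins were narrow, as given above, and the intervals of *clr-1*, *clr-2*, *cdt-1* and *cre-1* reached from lower values past no difference.

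**Figure D3:**
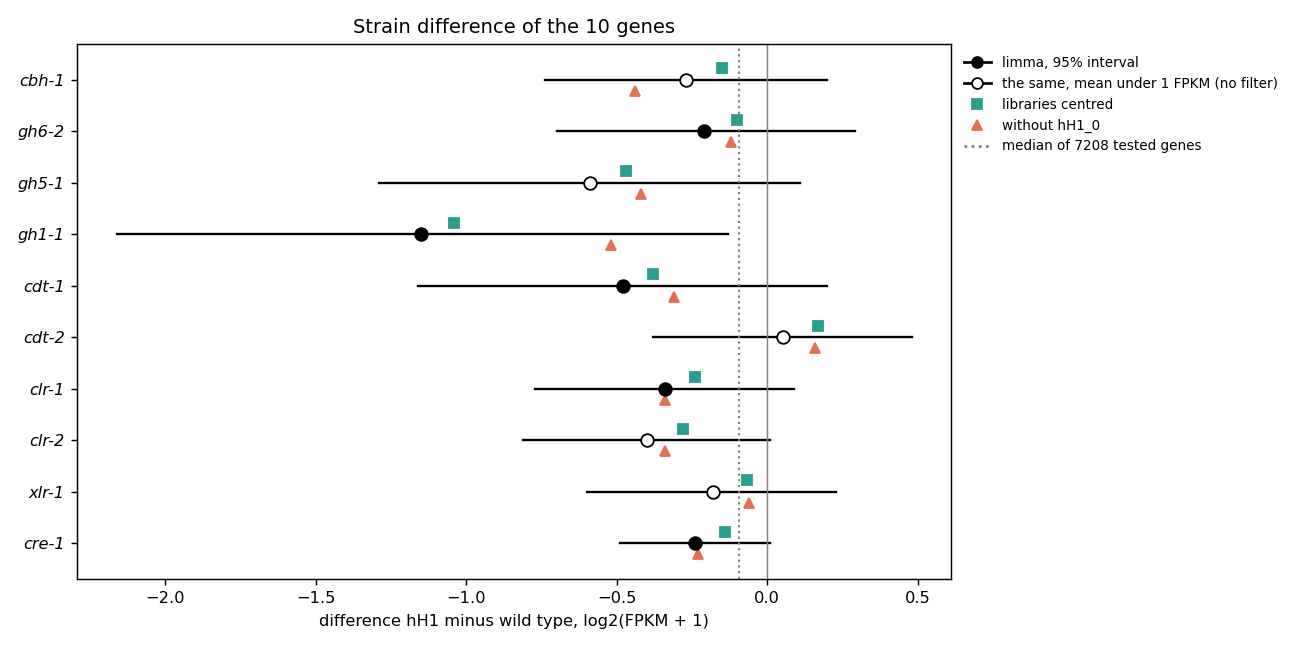
Difference between *hH1* and wild type on the scale of log2(FPKM + 1) (horizontal axis) for the 10 genes, with 95% intervals from limma (circles, open where the mean was under 1 FPKM and the fit without a filter was used), after centring (squares) and without hH1_0 (triangles). The interval of *gh1-1* is the widest (-2.16 to -0.13) and its value moves from -1.15 to -0.52 without hH1_0. The 3 values of *cre-1* lie between -0.24 and -0.14, and the dotted line is the median of all tested genes (-0.095).

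The table gives values per annotated transcript, and *gh1-1* and *clr-1* have 2 transcripts each. For *gh1-1*, the transcript NCU00130T1, with 2014 bases of exon, held 100% of the level in WT_0, WT_1, hH1_1 and hH1_2 (rounded to 3 digits) and 60.6% in WT_2. There NCU00130T0, with 2240 bases of exon, was at 1.59 FPKM. For *clr-1*, NCU07705T0 held 100% in WT_1, WT_2 and hH1_2, and 39.6%, 61.8% and 61.6% in WT_0, hH1_0 and hH1_1. NCU07705T1 was thus the larger *clr-1* transcript in WT_0 and NCU07705T0 in the other 5 libraries, while the *clr-1* sums stayed within 5.22 to 7.31 FPKM in the wild type and 4.27 to 4.9 in the mutant. How reads shared by both transcripts were divided is not given in the sources used here. Tested each on its own, none of the 3 transcripts that averaged 1 FPKM or more passed the threshold (adjusted p between 0.34 and 0.845 from limma).

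**Figure D4:**
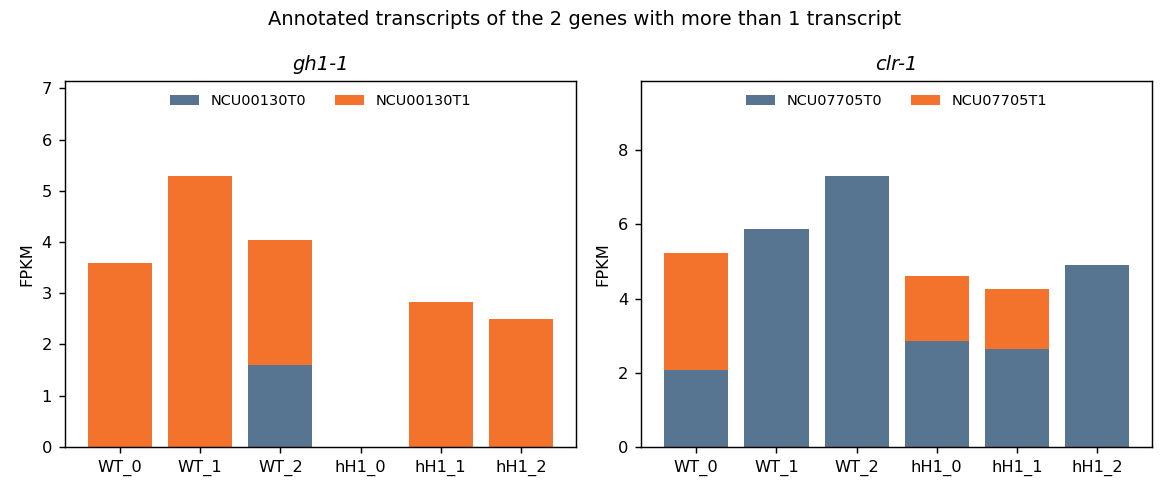
Level in FPKM (vertical axes) of the 2 annotated transcripts of *gh1-1* (left) and of *clr-1* (right), stacked in each of the 6 libraries. NCU00130T0 has a visible level only in WT_2 (1.59 FPKM), and NCU07705T1 is visible in WT_0, hH1_0 and hH1_1.

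In the genome, 5 of the 10 genes lie on LG IV, which holds 15.3% of all genes of the table. They are *cbh-1* and all 4 regulators, and no pair of them is closer than 306 kb. On LG I, *cdt-1* and *gh5-1* lie 147 kb apart. The gap to the nearest gene was 150 bases at *gh6-2* and 8421 bases at *cre-1*.

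Other genes were taken from the gene table by their symbols, as enzymes of carbohydrate-active families whatever their substrate, other regulators and sugar transporters. Of 78 further genes of carbohydrate-active enzyme families, 45 passed the filter, 1 rose and 2 fell in the mutant (limma, Benjamini-Hochberg), with 3.26% of all tested genes having fallen and 1.73% having risen. The list had a median log2 difference of -0.19 against -0.095 for all tested genes. In this list, too, hH1_0 stood apart, with 27 genes listed at 0 against 14 to 18 in the other libraries. In the 34 genes of cellulose and xylan families (glycosidases, lytic polysaccharide monooxygenases of the *gh61* symbols, and cellobiose dehydrogenases), 20 had a mean under 1 FPKM, including 6 that were listed at 0 in each library. Of the 14 tested, 0 were called, 2 had an unadjusted p under 0.05 and 12 had a negative difference (median -0.21), against 25.9% and 60.1% of all tested genes with such a p and such a sign. The highest of the 34, named after their values were seen, was *gh61-2* (NCU07760), at 33.5 ± 7.14 FPKM in the wild type, against 41.1 ± 8.27 FPKM in the mutant (SD, n = 3). Its groups overlapped. The next, *gh61-9* (NCU05969), was at 29.5 ± 9.65 FPKM in the wild type, against 17.7 ± 4.01 FPKM in the mutant (SD, n = 3), without overlap and with an adjusted p of 0.103 from limma.

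The 3 called genes of the enzyme list were *gh35-1*, *gh47-2* and *gh28-1*. *gh35-1* (NCU00642) carries the symbol of a beta-galactosidase family. Its levels in the wild type were 14.6, 15.0 and 13 FPKM, against 6.91, 6.75 and 7.82 FPKM in the mutant, a log2 difference of -0.9 (adjusted p = 0.0146 from limma). *gh47-2*, of a family of alpha-mannosidases that trim glycoproteins, measured 3.63, 4.28 and 3.26 FPKM in the wild type, against 1.38, 0.851 and 1.73 FPKM in the mutant, a log2 difference of -1.04 (adjusted p = 0.0492). *gh28-1*, of the polygalacturonase family that cuts pectin, rose from 26.1, 31.1 and 27.4 FPKM to 41.7, 41.1 and 58.4 FPKM, a log2 difference of 0.7 (adjusted p = 0.0372). Whether such calls were more frequent outside the cellulose and xylan families was not tested. With the trend of each library with gene length removed, none of the 3 passed the threshold. Leaving out 1 library ended the call of *gh47-2* whichever library it was (adjusted p between 0.0652 and 0.157 from limma), that of *gh28-1* for each library but hH1_0 (up to 0.158), and that of *gh35-1* without WT_0, WT_1 or hH1_1 (up to 0.0917). The call of *gh47-2* was also lost after centring (adjusted p = 0.0603 from limma), after quantile normalization (0.0807), with a pseudocount of 0.1 (0.0602) and with no filter (0.0513), and that of *gh28-1* with no filter (0.0635) and with no variance trend (0.0842). The most abundant genes of the enzyme lists were *gh13-1*, *gh18-5* and *gh16-1*, at 265 ± 39.4, 204 ± 7.35 and 108 ± 24.3 FPKM in the wild type, against 227 ± 19.1, 215 ± 49.6 and 93.0 ± 7.56 FPKM in the mutant (SD, n = 3), and the groups overlapped for each.

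Of 7 other regulators of carbon and nitrogen use that the gene table names (*vib-1*, *col-26*, *rca-1*, *rco-1*, *rcm-1*, *nit-2* and *cpc-1*), 1 fell in the mutant and 0 rose (limma, Benjamini-Hochberg), against 3.26% and 1.73% of all tested genes. The gene that fell was *nit-2*, the GATA factor that activates genes for the use of poor nitrogen sources, at 105, 81.6 and 85.9 FPKM in the wild type, against 47.9, 50.9 and 55.4 FPKM in the mutant. Its log2 difference was -0.8 (adjusted p = 0.0132), and its adjusted p was 0.0522 with the trend with gene length removed and 0.0743 without WT_0. After centring, *rca-1*, named here after its values were seen, passed as well. It measured 8.88, 11.3 and 11.2 FPKM in the wild type, against 12.9, 18.6 and 17.1 FPKM in the mutant, with an adjusted p of 0.0823 as deposited and 0.0415 centred (limma). The highest of the 7 was *cpc-1*, the activator of amino acid synthesis genes, at 1239 ± 87.4 and 1049 ± 203 FPKM (SD, n = 3). The corepressor gene *rco-1* was at 125 ± 5.05 and 112 ± 3.06 FPKM, and *vib-1*, which is needed for full cellulase induction, was at 91.7 ± 7.79 and 94.3 ± 15.7 FPKM. Both were thus close to *cre-1* in level. The sugar transporter genes *sor-4* and *hgt-1* were at 8.8 ± 0.831 and 1.71 ± 0.778 FPKM in the wild type, against 6.74 ± 1.25 and 0.717 ± 0.393 FPKM in the mutant (adjusted p = 0.249 and 0.275 from limma).

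**Figure D5:**
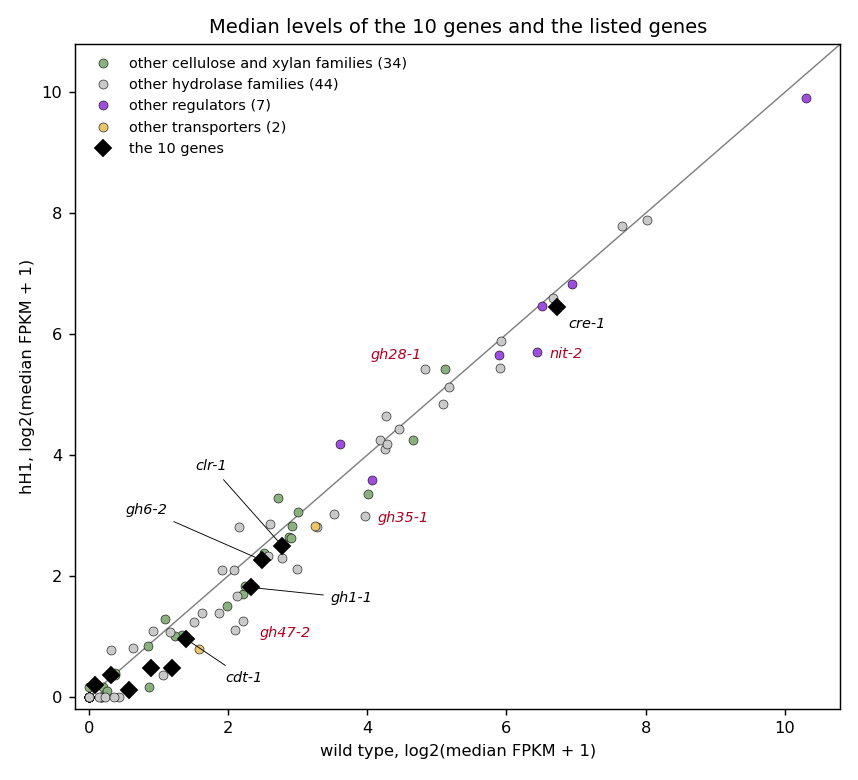
Median level over the 3 libraries of the 10 genes (black diamonds) and of the 87 listed genes (circles, coloured by list) in the wild type (horizontal axis) and in *hH1* (vertical axis), as log2(median FPKM + 1), with the line of equal levels. Most of the 10 genes lie at the low end and *cre-1* near the high end, and the 4 genes named in red passed the test (*gh28-1* above the line, *gh35-1*, *gh47-2* and *nit-2* below it).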

How the data were processed

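RNA of 6 libraries, 3 per strain, among the 22 samples of the series, was analysed. Stranded libraries were made after ribosomal RNA depletion. The submitters' processing notes name TopHat2 2.0.14 and Cuffnorm, and reads were aligned to the NC12 assembly. The authors deposited FPKM per annotated transcript, with no counts, and how the libraries were scaled against each other is not given in the sources used here. All 6 value columns were used.

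The 10785 transcripts were summed to 9730 genes. Symbols and positions came from a RefSeq gene table of NC12, in which 9729 genes matched and 1118 had a symbol. Values were tested as log2(FPKM + 1) with limma 3.58.1 in R 4.3.3 (variance trend, strain as the only term) where the 6 libraries averaged 1 FPKM or more, with p adjusted by Benjamini-Hochberg and called below 0.05. Single genes were also compared by two-sided exact permutation over the 20 labelings. The p-values set the difference between the strains against the spread between these libraries, and they do not separate H1 loss from strain background. Members below the filter were taken from the fit without it. In data simulated for this comparison with 7208 genes, limma recovered 68 of 100 genes changed by 1 and 97 of 100 changed by 2 on the log2 scale, with 4.07% false calls. The changed genes were drawn from all tested genes, with normal noise and no library like hH1_0. These shares therefore do not give the power for the members, of which 5 were under the filter. Depth was estimated with Python 3.11.15 from single-transcript genes, as the depth at which low FPKM are whole fragments (within 0.1) over the length less 200 bases. It covers counting error only.

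The members and lists were chosen with earlier results of these data known. The text names the 10 members, *hH1*, *matA-1*, each listed gene past the threshold and the 3 highest of each list. Other genes were named after their values were seen. Alternatives were the pseudocount, the filter, centring, quantile normalization, the length trend, the variance model, single transcripts, leaving out each library and a block by column number.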

Additional observations from a re-analysis of the deposited data

How the results depend on the processing

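Of 142 values of the 10 genes under other settings, 139 kept their direction, and none passed the threshold (lowest adjusted p = 0.108 from limma, for *clr-2*). The 3 others were *cdt-2*, which leaving out 1 library moved to between -0.071 (without hH1_2) and 0.18 (without WT_2) and to -0.033 without WT_0, and *xlr-1* at 0.0018 with the length trend removed. Over all genes, 360 were called (125 higher and 235 lower in the mutant), against 188 with no filter, 224 with the length trend removed, 135 with no variance trend and 45 for single transcripts. Leaving out 1 library gave between 29 (without WT_0) and 372 (without WT_2), with 119 without WT_1, 217 without hH1_0, 111 without hH1_1 and 135 without hH1_2. Centring gave 281 higher and 140 lower, and quantile normalization gave 158 and 173. Of the listed genes, 4 were called, against 2 with no filter, 0 with the length trend removed and 0 for single transcripts. Leaving out 1 library gave between 0 and 3, with 0 without WT_0, 1 without WT_1 or hH1_1, and 2 without WT_2 or hH1_2. The cause was not tested. Treating as missing a 0 in genes at 1 FPKM or more in the other 5 libraries was chosen after seeing the data, and it gave 369 calls, and -0.52 for *gh1-1*. The numbers in the column names are not the labels' replicate numbers, and deviations of same-numbered libraries correlated at -0.013, 0.035 and 0.11 across genes, with WT_0, WT_1 and hH1_0 each correlating better with another number. A fit with this number as a block, also chosen after seeing the data, called 199 genes, 0 of the 10 and 2 of the listed genes. Depth limits *cdt-2*, *clr-2* and *xlr-1* most, at fewer than 20 fragments per library.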
